A study of Mus musculus with 7 samples.

Results

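Regions of open chromatin that lie inside a gene but far from its start were taken from an ATAC-seq study of mouse adipose tissue macrophages. A region belonged to this set when it lay on an autosome, was annotated by the authors as inside its assigned gene, and had a distance to the gene start of more than 10 kb and at most 100 kb. Of the 5898 regions in the authors' deposited tables, 1280 met this rule, in 955 genes. Places are those of the authors' annotation on the mouse build GRCm38, and 1235 of the 1280 regions also lay in their assigned gene in the RefSeq gene table of GRCm38.p6. Protein-coding genes held 1212 of the regions and long non-coding RNA genes 63. Nearest to the limits of the rule were regions of Stx16 at 10008 bp and Runx1 at 99464 bp inside it, and regions of Il27ra at 9992 bp and Fnip2 at 100035 bp outside it. Exon annotation was not used here, so exonic and intronic regions were not separated.

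ATAC-seq uses the transposase Tn5 to insert sequencing adapters into DNA that nucleosomes leave free, so that the read count of a region measures how open it is. Adult male C57Bl/6J mice gave the macrophages, which were FACS-sorted before their nuclei went into the transposase reaction. HFD-RD mice (n = 2 libraries) ate a high-fat diet with 60% lipid for 11 weeks and then, to lose weight, a regular diet with 10% lipid for 9 weeks. HFD mice (n = 3 libraries) ate the high-fat diet for 11 weeks. RD-RD mice (n = 2 libraries) ate the regular diet for 20 weeks. HFD mice were thus on study for 11 weeks and the other groups for 20 weeks, so that diet and time on study cannot be told apart in comparisons with HFD. Neither the number of mice behind a library nor the sorting gate is given in the sources used here, and p-values measure the spread between libraries.

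DNA far inside a gene is mostly intron, and open chromatin there often marks an enhancer, a stretch bound by transcription factors that can raise transcription of the gene around it or of another gene on the same chromosome. In macrophages, lineage-determining factors such as PU.1 open many such sites, and factors that respond to signals from the tissue then bind there. Some intragenic sites are instead alternative promoters, where a shorter transcript of the same gene starts. Mammalian promoters often hold many CpG dinucleotides, which are rare elsewhere in the genome.

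Regions with an annotated transcript start were a small share of the set. Of the 1280 regions, 17 (1.33%) held a transcript start of the RefSeq promoter table, against 304 of all 5898 deposited regions (5.15%). The rule itself leaves out the 296 regions over gene starts, so a lower share than over all regions was set in advance. In 13 of the 17 the start belonged to the assigned gene itself. Of these 13 regions, 9 were less open and 4 more open in HFD-RD than in RD-RD, where 32.4% of all deposited regions were called lower and 64.8% higher. The windows around the 10 starts in less open regions held 8 to 54 CpG, and those around the 4 starts in more open regions held 3 to 6. With libraries scaled by the median of ratios, 9 of the 13 were still called lower and 1 higher. Windows of 3 regions of each direction are shown so that the difference in CpG can be seen. Each runs from 250 bases before to 50 bases after the transcript start on the strand of the gene, with each CpG in capitals, and is RefSeq's sequence of GRCm38.p6.

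The first windows lie in regions that were less open in HFD-RD than in RD-RD. The Aff3 window is chr1:38627195-38627494 on the minus strand, that of Ankef1 is chr2:136532071-136532370 on the plus strand and that of Slc41a3 is chr6:90618996-90619295 on the plus strand.
Aff3: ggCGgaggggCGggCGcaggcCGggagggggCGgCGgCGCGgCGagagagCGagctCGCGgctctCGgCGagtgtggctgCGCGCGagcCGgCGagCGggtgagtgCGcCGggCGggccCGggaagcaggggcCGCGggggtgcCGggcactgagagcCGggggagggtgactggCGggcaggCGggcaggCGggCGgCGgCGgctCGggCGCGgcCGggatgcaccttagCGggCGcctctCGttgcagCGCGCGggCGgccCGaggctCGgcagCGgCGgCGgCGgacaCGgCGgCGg
Ankef1: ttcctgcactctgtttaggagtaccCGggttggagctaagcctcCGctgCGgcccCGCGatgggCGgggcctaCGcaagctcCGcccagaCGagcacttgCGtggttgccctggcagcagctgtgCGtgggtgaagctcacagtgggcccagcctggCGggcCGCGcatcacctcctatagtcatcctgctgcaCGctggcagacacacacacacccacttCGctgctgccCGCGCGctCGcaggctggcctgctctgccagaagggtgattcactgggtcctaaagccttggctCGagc
Slc41a3: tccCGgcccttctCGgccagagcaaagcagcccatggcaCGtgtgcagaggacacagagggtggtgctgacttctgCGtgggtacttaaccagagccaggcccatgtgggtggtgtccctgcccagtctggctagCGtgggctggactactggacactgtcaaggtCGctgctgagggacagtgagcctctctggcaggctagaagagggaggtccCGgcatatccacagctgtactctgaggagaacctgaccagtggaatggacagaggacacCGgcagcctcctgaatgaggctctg

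The other windows lie in regions that were more open in HFD-RD than in RD-RD. The Hsd11b1 window is chr1:193242311-193242610 on the minus strand, that of Speg is chr1:75399835-75400134 on the plus strand and that of Tpst2 is chr5:112296891-112297190 on the plus strand.
Hsd11b1: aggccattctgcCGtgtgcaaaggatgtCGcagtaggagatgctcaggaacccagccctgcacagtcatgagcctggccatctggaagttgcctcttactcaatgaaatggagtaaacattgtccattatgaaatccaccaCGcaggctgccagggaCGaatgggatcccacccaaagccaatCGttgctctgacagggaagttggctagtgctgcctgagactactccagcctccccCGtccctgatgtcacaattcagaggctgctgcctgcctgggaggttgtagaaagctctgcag
Speg: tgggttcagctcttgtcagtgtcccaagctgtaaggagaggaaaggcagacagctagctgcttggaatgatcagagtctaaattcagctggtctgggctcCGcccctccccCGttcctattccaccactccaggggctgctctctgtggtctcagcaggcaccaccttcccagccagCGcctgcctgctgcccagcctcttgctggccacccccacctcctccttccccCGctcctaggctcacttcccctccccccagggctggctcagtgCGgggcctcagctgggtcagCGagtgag
Tpst2: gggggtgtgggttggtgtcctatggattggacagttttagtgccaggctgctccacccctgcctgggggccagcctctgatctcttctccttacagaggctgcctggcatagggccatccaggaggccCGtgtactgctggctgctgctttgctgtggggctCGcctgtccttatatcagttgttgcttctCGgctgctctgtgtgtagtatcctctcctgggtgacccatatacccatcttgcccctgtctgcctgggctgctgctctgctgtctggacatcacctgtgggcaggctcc

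Aff3 encodes a nuclear protein of the AF4/FMR2 family, and its window holds 54 CpG with 83.3% G and C. The deposited value of a region is its read count divided by a size factor of the library, called normalized count here. The Aff3 region had 74.8 and 84.2 normalized counts in HFD-RD, 163, 207 and 156 in HFD and 192 and 222 in RD-RD. The HFD-RD libraries lay below those of both other groups, with a log2 change of -1.37 ± 0.22 (SE) against RD-RD (limma, adjusted p = 0.000272) and of -1.12 ± 0.20 against HFD (adjusted p = 0.00752). HFD and RD-RD overlapped. With median-of-ratios scaling, HFD was also called lower than RD-RD there (-0.95), and without HFD-RD replicate 1 the change against HFD of -1.04 no longer passed (adjusted p = 0.058).

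Ankef1, which encodes an ankyrin repeat protein, has 21 CpG in its window. Its region had 89.4 and 81.5 normalized counts in HFD-RD, 132, 97.1 and 114 in HFD and 338 and 359 in RD-RD. Here HFD-RD and HFD both lay below RD-RD, with log2 changes of -2.02 ± 0.21 and -1.61 ± 0.19. The Ankef1 region also overlaps another RefSeq gene, Gm32659. Slc41a3, a magnesium transporter gene, has 8 CpG in its window, and its region had 62.0 and 53.7 normalized counts in HFD-RD, 81.3, 96.3 and 78.2 in HFD and 152 and 177 in RD-RD. Its log2 change was -1.49 ± 0.21 in HFD-RD against RD-RD. The largest decrease at an inner start was in Cnpy1, with 29.2 and 31.5 normalized counts in HFD-RD, 46.5, 63.4 and 59.3 in HFD and 168 and 128 in RD-RD and a log2 change of -2.24 ± 0.23 in HFD-RD against RD-RD. In Tmem56, named Tlcd4 in RefSeq, HFD-RD stood below both other groups, with 212 and 213 normalized counts in HFD-RD, 406, 507 and 410.1 in HFD and 397 and 343 in RD-RD.

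Hsd11b1 encodes the enzyme that turns inactive glucocorticoid into its active form, and its window holds 6 CpG. Its region had 458 and 401 normalized counts in HFD-RD, 132, 166 and 156 in HFD and 157 and 226 in RD-RD. Both HFD-RD libraries exceeded all others, by a log2 change of 1.18 ± 0.23 against RD-RD (limma, adjusted p = 0.000683) and of 1.50 ± 0.21 against HFD (adjusted p = 0.004). HFD against RD-RD did not pass (-0.32 ± 0.21, adjusted p = 0.173). With median-of-ratios scaling the Hsd11b1 change against RD-RD was 0.36 in HFD-RD and no longer passed, and -1.02 in HFD, which then passed. Without RD-RD replicate 1 that in HFD also passed, at -0.58. Speg encodes a kinase known from striated muscle, and the region at its inner start had 173 and 263 normalized counts in HFD-RD, 149, 128 and 239 in HFD and 39.9 and 56.2 in RD-RD. All HFD-RD and HFD libraries exceeded RD-RD there, with log2 changes of 2.15 ± 0.32 and 1.79 ± 0.29. Tpst2, whose product adds sulfate to tyrosines of secreted proteins, has 3 CpG in its window. Its region had 1485 and 1141 normalized counts in HFD-RD, 963, 936 and 1002 in HFD and 592 and 711 in RD-RD, a log2 change of 1.00 ± 0.21 in HFD-RD against RD-RD. The fourth of these regions, in the ubiquitin-conjugating enzyme gene Ube2h, had a log2 change of 1.04 ± 0.22. The Tpst2 and Ube2h changes did not pass with median-of-ratios scaling, at 0.18 and 0.23.

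Starts of another gene lay in the 4 remaining regions, all of which rose in HFD-RD and in HFD against RD-RD. They were starts of the RefSeq genes Gm36409 inside 4933427D06Rik, Gm34254 inside Pde6b, B230398E01Rik inside Pi4kb and Gm52034 inside Slc38a9. Their windows held 1 to 10 CpG. The Slc38a9 region had 69.3 and 61.1 normalized counts in HFD-RD, 72.3, 80.6 and 73.9 in HFD and 28.6 and 33.1 in RD-RD, and with median-of-ratios scaling its change in HFD-RD against RD-RD was 0.25 and did not pass. As deposited, the 4 log2 changes in HFD-RD against RD-RD ran from 1.05 to 1.32. Over the deposited regions outside the set, 286 starts in regions that fell had a median of 20.0 CpG in their windows and 42 starts in regions that rose a median of 5.5. Their ranges overlapped almost fully there, with 1 to 56 CpG where regions fell and 1 to 35 where they rose. Of the 1263 intragenic regions without a start, 76.3% were called higher and 21.5% lower in HFD-RD against RD-RD.

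**Figure D1:**
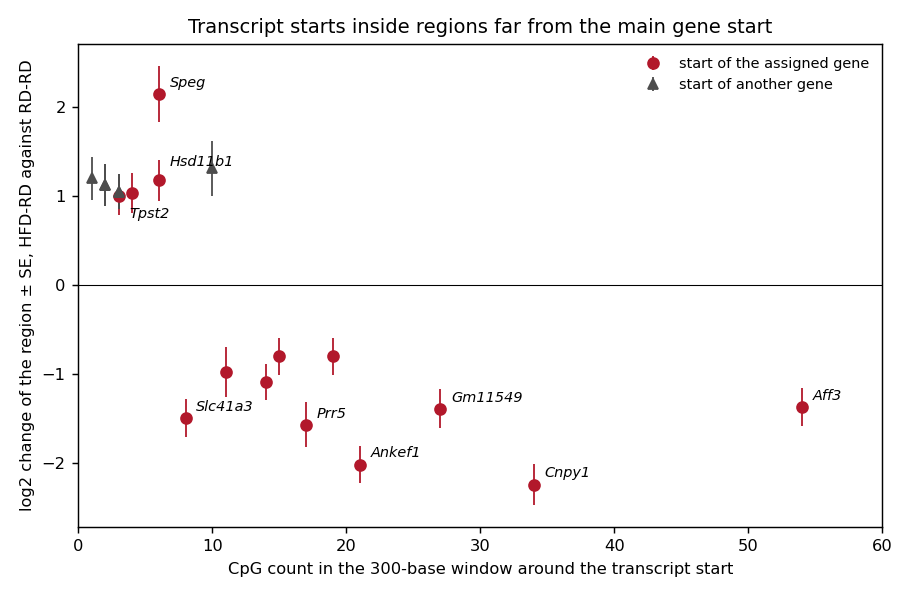
Log2 change with its SE of the 17 intragenic regions that hold a RefSeq transcript start, in HFD-RD against RD-RD (vertical axis), against the number of CpG in the 300-base window around that start (horizontal axis). Each of the 20 points is a start with the change of its region, and starts of the assigned gene are set apart from starts of another gene; starts of the assigned gene above 0 lie at 3 to 6 CpG and those below 0 at 8 to 54.

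Read numbers were estimated here from the smallest step between the values of a library, since neither reads nor size factors are given in the sources used here. By this estimate the libraries held 889422 to 2807495 reads in all deposited regions and 118776 to 554399 in the 1280 intragenic regions, with a median of 63 to 274 reads per region. The intragenic regions took 16.5% and 18.6% of the reads in HFD-RD, 19.7%, 18.8% and 20.1% in HFD and 12.2% and 12.96% in RD-RD. The region with the most reads of all was found in each library separately. It took 14.3% and 9.95% in HFD-RD, 5.49%, 7.25% and 5.51% in HFD and 15.0% and 14.6% in RD-RD. Whether it was the same region in all 7 libraries was not checked, and its part in these shares was not tested. Groups follow titles and diet labels, from which the source name of each of the 7 libraries differs. Across the 1280 regions, libraries of the same group correlated with Pearson's r of 0.925 to 0.972 on the log2 scale, HFD-RD with HFD libraries at 0.839 to 0.907, and HFD-RD with RD-RD libraries at 0.449 to 0.582. Regions are not independent replicates, and they were deposited for differing between these groups, so these values do not decide between the labels.

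With the deposited scaling, most intragenic regions of this selected set were called more open in HFD-RD than in RD-RD. This comparison sets mice switched from the high-fat to the regular diet against mice kept on the regular diet. Of the 1280 regions, 972 (75.9%) were called higher, 281 (22%) lower, and 27 did not pass (limma on log2 of the normalized count plus 1, Benjamini–Hochberg adjusted p of at most 0.05 over the 5898 regions). Over all deposited regions 64.8% were called higher, 32.4% lower and 97.2% in either direction, since the authors had selected regions that differ. The median normalized count over the intragenic regions was 138 and 128 in the HFD-RD libraries and 79.7 and 90.7 in the RD-RD libraries. The median log2 change was 1.18 among regions called higher and -1.24 among those called lower, with a median SE of 0.233. Over all 1280 regions it was 1.10, against 1.03 over all deposited regions.

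The balance of these calls depends on which scaling is used. With each library scaled to the same total, 928 of the 1280 were called higher and 288 lower. That left 76.3% of the calls higher. With median-of-ratios scaling over the deposited regions, the median of all regions moved by -0.81 on the log2 scale and 243 of the 1280 were called higher and 296 lower. Thus 45.1% in place of 77.6% of the called intragenic regions were higher. That scaling draws the median change of the deposited regions towards 0 by construction, though these had been selected for differing. Their median log2 change was 0.22 under it and 1.03 as deposited, and 0.06 and 0.75 in HFD against RD-RD. Counts under median-of-ratios scaling thus show how calls depend on it but cannot decide whether they are wrong. Under that scaling 19% of the intragenic and 14.5% of all deposited regions were called higher, and 23.1% and 34% lower. Of 116 regions named by rule, 114 were called between HFD-RD and RD-RD, of which 43 lost their call under that scaling. Calls against RD-RD named in the text are therefore relative to the deposited scaling, and those of small changes depend on it.

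Set against RD-RD, HFD had 894 of the 1280 regions called higher (69.8%), 247 lower (19.3%), and 139 that did not pass. Over all deposited regions 59.2% were called higher, 29% lower and 88.2% in either direction. The median normalized count was 124, 117 and 138 in the HFD libraries. Regions called higher had a median log2 change of 1.08 and regions called lower one of -0.88. With each library scaled to the same total, 903 were called higher and 236 lower, and 79.3% of the calls were higher. With median-of-ratios scaling the median moved by -0.70 and 286 were called higher and 303 lower. Thus 48.6% in place of 78.4% of the calls were higher. Of the 116 named regions, 108 were called, of which 40 lost their call under that scaling, and 6 others gained one. This comparison uses the same RD-RD libraries as that of HFD-RD, so the counts are not independent.

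HFD-RD was set against HFD directly to see what differed between mice after and before the diet switch. Of the 1280 regions, 134 (10.5%) were called higher in HFD-RD, 113 (8.83%) lower, and 1033 did not pass. Over all deposited regions 10.2% were called higher, 12.8% lower and 23.1% in either direction. The share of calls that were higher was 54.3%, but 21.2% with each library scaled to the same total (73 higher, 271 lower) and 34.9% with median-of-ratios scaling (106 higher, 198 lower). The counts also moved with single libraries. A fit without HFD-RD replicate 1 or 2 leaves 1 library in that group, so a lost call need not mean a smaller change. By the estimate above, HFD-RD replicate 1 also had the fewest reads in all deposited regions, 889422. Leaving out HFD-RD replicate 1 gave 4 higher and 20 lower. Without HFD replicate 1 they were 44 and 38, without HFD replicate 2 they were 82 and 76, and without HFD replicate 3 they were 65 and 58. Of the 116 named regions 38 were called, of which 29 lost their call without HFD-RD replicate 1, 11 without HFD-RD replicate 2, and 18, 10 and 12 without HFD replicate 1, 2 and 3. Regions of Ap4e1, Pfkfb4, Sptlc2, Sulf2, Cpe and Smo were among the 29, with values of 1.15, 1.01, 0.97, 0.58, -0.70 and 0.73 on the log2 scale without that library.

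**Figure D2:**
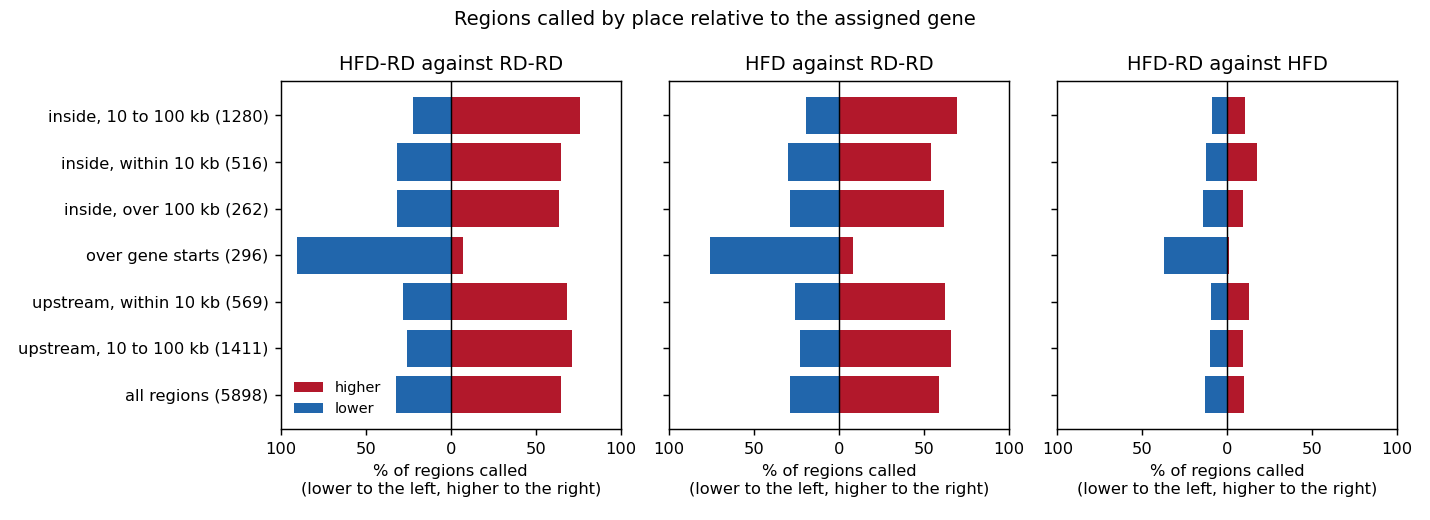
Share of regions called higher and lower in each comparison (horizontal axis, % of the regions of a class), for classes of regions by their place relative to the assigned gene. Intragenic regions at 10 to 100 kb had 75.9% higher and 22% lower calls in HFD-RD against RD-RD, and regions over gene starts 7.43% and 90.5%.

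The share of increases had no steady order over the distance from the gene start within the set. In HFD-RD against RD-RD, the share called higher was 76.9% of 390 regions at 10 to 20 kb, 77.5% of 467 at 20 to 40 kb, 71.3% of 209 at 40 to 60 kb, 78% of 141 at 60 to 80 kb and 69.9% of 73 at 80 to 100 kb. By place along the gene it rose in order. It was 73.4% over the first 25% of the gene's length, 75.8% at 25 to 50%, 77.9% at 50 to 75% and 79.1% beyond 75%. Regions inside the gene within 10 kb of its start had 64.9%, and regions inside it at over 100 kb 63.7%. Upstream regions at 10 to 100 kb, at the same distance but outside the gene, had 71.7%. The 320 widest intragenic regions, at 1054 bp or more, had 87.5% higher, and the 321 narrowest, at up to 564 bp, 67.6%. Wide regions also held more reads, with medians of 329 and 77.2 normalized counts in HFD-RD in the widest and the narrowest regions. These shares are descriptions without a test.

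Between HFD-RD and RD-RD, the regions with the largest increases included those of Ap4e1, Kdm4b, Npas2, Dlst, Angpt2, Rala and Syt6. The largest changes of a comparison were named only where its 2 groups did not overlap, so that trait is no support for them. Between HFD-RD and RD-RD it held for 1265 of the 1280 regions and 5784 of all 5898. For HFD against RD-RD it held for 1190 and 5466, and for HFD-RD against HFD for 722 and 3507. Ap4e1, which encodes a subunit of the AP-4 adaptor complex of vesicle traffic, had 166 and 181 normalized counts in HFD-RD, 66.8, 75.7 and 103 in HFD and 21.2 and 14.4 in RD-RD at 26421 bp from its start. The groups did not overlap, with log2 changes of 3.24 ± 0.26 in HFD-RD against RD-RD (limma, adjusted p = 2e-05) and 1.09 ± 0.24 in HFD-RD against HFD (adjusted p = 0.0117). Kdm4b, a histone demethylase gene, had 139 and 142 normalized counts in HFD-RD, 160.3, 117 and 224 in HFD and 12.5 and 34.6 in RD-RD. Its HFD-RD values lay within the range of HFD, and the log2 changes against RD-RD were 2.69 ± 0.40 in HFD-RD and 2.89 ± 0.37 in HFD.

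Npas2, a transcription factor gene of the circadian clock, had 159 and 169 normalized counts in HFD-RD, 159.9, 109 and 213 in HFD and 28.6 and 23.0 in RD-RD. Rala, which encodes a small GTPase of exocytosis, had 76.6 and 66.7 normalized counts in HFD-RD, 69.1, 60.1 and 94.6 in HFD and 4.98 and 24.5 in RD-RD. In both genes HFD-RD and HFD overlapped and stood above RD-RD, with log2 changes in HFD-RD against RD-RD of 2.63 ± 0.29 and 2.55 ± 0.50. The RD-RD libraries of Rala differed, and without RD-RD replicate 1 its change was 1.51. Dlst, a subunit gene of a citric acid cycle enzyme, had 228 and 104 normalized counts in HFD-RD, 114, 124 and 101 in HFD and 9.96 and 57.6 in RD-RD. Its RD-RD libraries differed from each other, and its log2 change of 2.61 ± 0.60 in HFD-RD against RD-RD had a wide error and was 1.40 without RD-RD replicate 1. Angpt2, which encodes an angiopoietin that acts on the endothelial receptor Tek, had 4 regions at 13137 to 42908 bp with log2 changes of 1.28 to 2.60. All 4 also lie inside the RefSeq gene Mcph1.

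The largest decreases were those of P3h2, Irs1, Gm2447, Atp2b2, Tmprss5, A4galt, Rarb and Abca8a. P3h2 encodes a prolyl hydroxylase of collagen. Its region at 23066 bp had 31.0 and 37.0 normalized counts in HFD-RD, 143, 114 and 119 in HFD and 351 and 312 in RD-RD, without overlap between groups, and a log2 change of -3.25 ± 0.21 in HFD-RD against RD-RD (limma, adjusted p = 8.92e-06). Irs1, the substrate of the insulin receptor kinase, had 43.8 and 24.995 normalized counts in HFD-RD, 92.6, 123 and 84.3 in HFD and 237 and 235 in RD-RD, a log2 change of -2.79 ± 0.28. Atp2b2, a calcium pump gene of the plasma membrane, had 62.0 and 84.2 normalized counts in HFD-RD, 177, 137 and 148 in HFD and 477 and 410.4 in RD-RD, a log2 change of -2.60 ± 0.23. In all 3 genes the HFD libraries lay between those of HFD-RD and RD-RD.

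Rarb, a retinoic acid receptor gene, had 32.8 and 38.9 normalized counts in HFD-RD, 70.0, 55.1 and 68.8 in HFD and 184 and 181 in RD-RD, a log2 change of -2.32 ± 0.21 in HFD-RD against RD-RD. Tmprss5, a transmembrane serine protease gene, had 25.5 and 25.9 normalized counts in HFD-RD, 83.5, 85.6 and 89.4 in HFD and 163 and 141 in RD-RD, a log2 change of -2.51 ± 0.19. Here too HFD lay between the other groups without overlap. A4galt, whose product makes the glycolipid globotriaosylceramide, had a log2 change of -2.38 ± 0.31 and Abca8a, a transporter gene of the ABC family, one of -2.28 ± 0.30. The predicted gene Gm2447 had the fewest reads of the 8, with 12.8 and 11.1 normalized counts in HFD-RD, 47.0, 35.4 and 42.1 in HFD and 66.0 and 93.6 in RD-RD.

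Gene groups in the set were small, and the counts of all lists below stand beside these shares. In HFD-RD against RD-RD 75.9% of the set and 64.8% of all deposited regions were called higher, and 22% and 32.4% lower. In HFD against RD-RD 69.8% and 59.2% were called higher, and in HFD-RD against HFD 10.5% and 10.2%. Most regions of a list would thus rise against RD-RD without a tie to it, and no list was tested against these shares. Of 11 regions in 5 genes of lipid-associated macrophages and lysosomes, 11 rose in HFD-RD against RD-RD, with a median log2 change of 1.23, and 11 rose in HFD against RD-RD. Between HFD-RD and HFD, 1 of the 11 rose and 10 did not pass. With median-of-ratios scaling, 3 of the 11 were called higher in HFD-RD against RD-RD and 0 lower, and 11 had log2 changes above 0. For HFD against RD-RD that scaling left 1 of the 11 called higher, with 10 above 0. They comprised 3 regions each in Cd36, a scavenger receptor for fatty acids and oxidised lipoprotein, and in Lipa, the lysosomal acid lipase. Cd9, a tetraspanin gene, and Nceh1, whose product cleaves cholesterol esters, had 2 each, and Mitf, a factor gene of lysosome control, had 1. The largest change was in Lipa at 14399 bp, with 173 and 128 normalized counts in HFD-RD, 116, 108 and 144 in HFD and 42.4 and 28.8 in RD-RD, where HFD-RD and HFD overlapped above RD-RD.

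Genes of lipid metabolism and transport had 13 regions in 10 genes, of which 11 rose, 1 fell and 1 did not pass in HFD-RD against RD-RD. Between HFD and RD-RD, 12 rose and 1 fell, and in HFD-RD against HFD 2 rose and 11 did not pass. Sptlc2, a subunit of the enzyme that begins sphingolipid synthesis, had 98.5 and 81.5 normalized counts in HFD-RD, 47.4, 55.9 and 25.8 in HFD and 19.9 and 24.5 in RD-RD. HFD-RD stood above both other groups, with log2 changes of 1.97 ± 0.32 against RD-RD and 1.11 ± 0.29 against HFD. Pld1, a phospholipase that makes phosphatidic acid, had 239 and 133 in HFD-RD, 98.0, 83.1 and 119 in HFD and 41.1 and 43.2 in RD-RD, with log2 changes of 2.06 ± 0.28 against RD-RD and 0.85 ± 0.26 against HFD. Without HFD-RD replicate 1 the change of Pld1 against HFD was 0.43 and did not pass (adjusted p = 0.316). Lrp1, a receptor for lipoproteins and protease complexes, had 4 regions with log2 changes of 0.91 to 1.75 in HFD-RD against RD-RD. The region that fell was that of Acsl1, which activates long-chain fatty acids, at -1.22. With median-of-ratios scaling, 4 of the 13 were called higher and 1 lower between HFD-RD and RD-RD, and 1 higher and 1 lower in HFD against RD-RD. With equal totals, 2 were higher and 2 lower in HFD-RD against HFD.

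Kinase, phosphatase and second messenger genes had 39 regions in 19 genes. Of these, 35 rose and 4 fell when HFD-RD was set against RD-RD, 30 rose and 4 fell in HFD against RD-RD, and 5 rose and 0 fell in HFD-RD against HFD. The median log2 change of 1.12 in HFD-RD against RD-RD lay close to that of all deposited regions (1.03), and with median-of-ratios scaling 0 were called higher and 4 lower, with 32 of 39 above 0. The same scaling gave 1 higher and 5 lower in HFD against RD-RD, and equal totals gave 1 higher and 4 lower in HFD-RD against HFD. Among those that rose were 2 regions of Syk, a kinase of immune receptor signalling, 3 of Ptk2b, a kinase of adhesion and calcium signals, 2 of Prkcb, a protein kinase C gene, and 1 of Src at 1.30. The 4 that fell were all 3 regions of Egfr, the receptor of epidermal growth factor, at -2.03, -1.50 and -2.01, and 1 region of Ppp3ca, a catalytic subunit of calcineurin, at -1.27. The Egfr region at 20377 bp had 36.5 and 64.8 normalized counts in HFD-RD, 63.7, 68.3 and 126 in HFD and 230.4 and 177 in RD-RD, where HFD-RD and HFD overlapped below RD-RD. The other Egfr regions also overlap the RefSeq genes Gm39584 and Egfros.

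Regulators of small GTPases, the switches of cytoskeleton and vesicle traffic, had 22 regions in 14 genes. Of these 17 rose and 5 fell when HFD-RD was set against RD-RD, 15 rose and 4 fell in HFD against RD-RD, and 2 rose and 3 fell in HFD-RD against HFD. Rasa2, a GTPase-activating protein of Ras, had 135 and 83.3 normalized counts in HFD-RD, 99.8, 101 and 153 in HFD and 18.7 and 25.9 in RD-RD at 42403 bp. HFD-RD and HFD overlapped above RD-RD, with log2 changes of 2.22 ± 0.30 and 2.34 ± 0.27. Arhgef3, an exchange factor of small GTPases, had 3 regions that fell, with log2 changes of -1.83, -1.99 and -1.11 against RD-RD and -0.92, -0.97 and -0.55 against HFD. Its region at 63066 bp had 91.2 and 129.6 normalized counts in HFD-RD, 224, 183 and 239 in HFD and 379.9 and 495 in RD-RD, without overlap between groups. The other regions that fell were 1 each in Asap1 and Dock8. With median-of-ratios scaling, 6 of the 22 were called higher and 5 lower between HFD-RD and RD-RD, and 6 higher and 6 lower in HFD against RD-RD. With equal totals, 1 was higher and 4 lower in HFD-RD against HFD. Without HFD-RD replicate 1 the 3 Arhgef3 changes against HFD did not pass.

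Adhesion and matrix genes had 17 regions in 10 genes, of which 12 rose, 4 fell and 1 did not pass in HFD-RD against RD-RD. For HFD against RD-RD 11 rose and 3 fell, and in HFD-RD against HFD 2 rose and 2 fell. Sulf2, an extracellular sulfatase of heparan sulfate, had 237 and 198 normalized counts in HFD-RD, 131, 149.7 and 119 in HFD and 62.3 and 59.0 in RD-RD at 72369 bp. The groups did not overlap, with log2 changes of 1.82 ± 0.21 against RD-RD and 0.71 ± 0.19 against HFD. Xylt1, whose product starts the sugar chains of proteoglycans, had 4 regions at 1.02 to 1.60. The 4 that fell were 2 regions of Spon1, a matrix protein gene, and 1 each of the integrin gene Itga2 and of Thsd4. With median-of-ratios scaling 2 of the 17 were called higher and 4 lower between HFD-RD and RD-RD, and 4 higher and 4 lower in HFD against RD-RD. With equal totals 0 were higher and 5 lower in HFD-RD against HFD.

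Guidance and synaptic adhesion genes had 15 regions in 8 genes, of which 11 rose, 2 fell and 2 did not pass in HFD-RD against RD-RD. Between HFD and RD-RD 12 rose and 2 fell, and in HFD-RD against HFD 2 rose and 1 fell. Plxna2, a semaphorin receptor gene, had 4 regions with log2 changes of 1.38 to 2.03 in HFD-RD against RD-RD. Its region at 67684 bp had 359 and 325 normalized counts in HFD-RD, 366, 274 and 426 in HFD and 82.2 and 83.5 in RD-RD and also overlaps the RefSeq gene Gm46202. Sema6a, a transmembrane semaphorin, had 27.4 and 42.6 normalized counts in HFD-RD, 42.0, 37.0 and 68.8 in HFD and 151 and 137 in RD-RD, a log2 change of -2.04 ± 0.30. The other region that fell was in Ntm, an adhesion gene of neurons. In both comparisons with RD-RD, median-of-ratios scaling left 4 of the 15 called higher and 3 lower, and with equal totals 1 was higher and 2 lower in HFD-RD against HFD.

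The other lists had up to 8 regions each. Angiogenesis and hypoxia genes had 8 regions, of which 8 rose in HFD-RD and 8 in HFD against RD-RD, and 0 passed in HFD-RD against HFD. Besides the 4 of Angpt2 they were 3 of Arnt2, a bHLH-PAS factor gene, and 1 of the receptor gene Tgfbr1 at 1.38, and with median-of-ratios scaling 5 of the 8 were called higher in HFD-RD and 7 in HFD against RD-RD. Glucose genes had 3 regions, of which those of Pfkfb4 and Pfkfb3, whose enzymes set the level of a glycolysis activator, rose and that of Slc2a3, a glucose transporter gene, fell in HFD-RD against RD-RD. The Pfkfb3 change of 1.00 was 0.19 with median-of-ratios scaling and 0.43 without HFD-RD replicate 1, and passed in neither. Pfkfb4 had 731 and 757 normalized counts in HFD-RD, 341, 375 and 417 in HFD and 142 and 169.9 in RD-RD. The groups did not overlap, with log2 changes of 2.25 ± 0.21 against RD-RD and 0.98 ± 0.19 against HFD.

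Macrophage lineage genes had 5 regions, of which 2 of Runx1 and 1 of the cytokine receptor gene Csf2rb rose and 1 each of Irf4 and Tcf4 fell in HFD-RD against RD-RD. With median-of-ratios scaling 0 of the 5 were called higher and 2 lower, and 2 were above 0. Ion channel and neurotransmitter receptor genes had 4 regions, of which 2 in Grik4, a kainate receptor gene, and 1 in Kcnq1, a potassium channel gene, fell and 1 in Kcnj6, also a potassium channel gene, rose in HFD-RD against RD-RD. Kcnj6 was not called with median-of-ratios scaling, at 0.32. The Grik4 region at 47840 bp had 195 and 186 normalized counts in HFD-RD, 289, 305 and 346 in HFD and 580.5 and 586 in RD-RD, without overlap between groups. Chromatin regulator genes had 4 regions, with those of Kdm4b and Arid5b higher, that of Smarca2 lower and that of Arid1b not called in HFD-RD against RD-RD. With median-of-ratios scaling the Arid5b change was 0.52 and not called (adjusted p = 0.0809), and Arid1b was called lower at -1.05. Il1r1, the receptor gene of interleukin 1, and Stat5b, a factor of cytokine signalling, rose by log2 changes of 1.61 and 1.56. Batf, an AP-1 family gene, rose by 1.74, and Nfatc1, a calcineurin-dependent factor gene, had a log2 change of -0.86. Toll-like receptor genes had 0 regions in the set.

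The regions that rose most in HFD against RD-RD were those of Kdm4b, Rala and Npas2, given above, and of Cpe, Wwp2, Galnt15, Tmem204 and Cdcp1. Cpe, a carboxypeptidase gene of prohormone processing, had 78.4 and 93.5 normalized counts in HFD-RD, 142, 119 and 211 in HFD and 21.2 and 33.1 in RD-RD. All HFD libraries lay above HFD-RD and RD-RD, with log2 changes of 2.48 ± 0.27 in HFD against RD-RD (limma, adjusted p = 0.000112) and -0.83 ± 0.27 in HFD-RD against HFD (adjusted p = 0.0471). Galnt15, whose product adds the first sugar of mucin-type chains, had 719, 560.3 and 911 normalized counts in HFD and 137 and 132 in RD-RD, a log2 change of 2.40 ± 0.23. Wwp2, a ubiquitin ligase gene, and Cdcp1, a surface protein that Src kinases phosphorylate, had log2 changes of 2.40 ± 0.24 and 2.37 ± 0.30. Tmem204 had one of 2.40 ± 0.26, in a region that also overlaps Ift140.

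The largest decreases in HFD against RD-RD were those of Barx2, Ankef1, Sema6a, Egfr, Col9a1, Immp2l, Smo and Atp2b2. Barx2, a homeobox gene, had 60.1, 46.1 and 59.3 normalized counts in HFD and 172 and 171 in RD-RD, a log2 change of -1.63 ± 0.33. Col9a1, a cartilage collagen gene, had 80.8, 102 and 75.7 normalized counts in HFD and 255 and 255 in RD-RD, a log2 change of -1.57 ± 0.21, and Immp2l, a mitochondrial peptidase gene, one of -1.54 ± 0.20. Smo, the signal transducer of the Hedgehog pathway, had 923 and 556 normalized counts in HFD-RD, 328, 349 and 329 in HFD and 1072 and 876 in RD-RD. HFD lay below both other groups, which overlapped, with log2 changes of -1.53 ± 0.23 in HFD against RD-RD and 1.09 ± 0.23 in HFD-RD against HFD (adjusted p = 0.0107). HFD-RD against RD-RD did not pass (-0.43 ± 0.25, adjusted p = 0.114), but was called lower with median-of-ratios scaling (-1.25), with equal totals (-0.63) and without HFD-RD replicate 1 (-0.80). Gm17767 had the same order of groups, with 151 and 106 in HFD-RD, 51.9, 60.1 and 39.5 in HFD and 99.6 and 107 in RD-RD.

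In HFD-RD against HFD, the largest increases were those of Vipr2, Dapk1, Hsd11b1, Fam149b, Atp8a1, Gm17767, Ppfibp2 and Papss1. Vipr2, a receptor gene of vasoactive intestinal peptide, had 409 and 313 normalized counts in HFD-RD, 104, 132 and 88.5 in HFD and 118 and 158 in RD-RD. Both HFD-RD libraries stood above all others, with log2 changes of 1.74 ± 0.23 against HFD (limma, adjusted p = 0.00371) and 1.38 ± 0.25 against RD-RD. HFD against RD-RD did not pass (-0.36 ± 0.23, adjusted p = 0.159). With median-of-ratios scaling the Vipr2 change against RD-RD was 0.56 in HFD-RD and no longer passed (adjusted p = 0.077), and -1.06 in HFD, which then passed. Dapk1, a calmodulin-dependent kinase gene of cell death, had 575 and 466 normalized counts in HFD-RD, 199, 159 and 186 in HFD and 138 and 114 in RD-RD. Its HFD-RD libraries also exceeded all others, with log2 changes of 1.52 ± 0.20 against HFD and 2.04 ± 0.22 against RD-RD.

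Atp8a1, a flippase gene that moves phospholipids across membranes, had 160.5 and 110.2 normalized counts in HFD-RD, 61.9, 51.0 and 44.7 in HFD and 52.3 and 46.1 in RD-RD, a log2 change of 1.34 ± 0.22 in HFD-RD against HFD. Ppfibp2, a liprin gene, had 149.6 and 116 normalized counts in HFD-RD, 59.2, 43.6 and 56.7 in HFD and 56.1 and 53.3 in RD-RD, a log2 change of 1.30 ± 0.21. In both genes HFD and RD-RD overlapped, with log2 changes of 0.08 ± 0.22 and -0.05 ± 0.21 in HFD against RD-RD. With median-of-ratios scaling these were -0.61 and -0.75 and both passed. Papss1, whose product makes the sulfate donor of sulfotransferases, had 177 and 67.6 normalized counts in HFD-RD, 44.7, 43.6 and 51.6 in HFD and 51.1 and 38.9 in RD-RD. Its HFD-RD libraries differed more from each other than the HFD libraries did. Fam149b had a log2 change of 1.38 ± 0.33 in HFD-RD against HFD.

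The largest decreases in HFD-RD against HFD were those of P3h2 (-1.85 ± 0.19, adjusted p = 0.00188), Gm2447 (-1.71 ± 0.21), Tmprss5 (-1.71 ± 0.18), Irs1 (-1.55 ± 0.25), Hectd2os, Lpar1, Igf1 and A4galt. Lpar1, a receptor gene of lysophosphatidic acid, had 78.4 and 84.2 normalized counts in HFD-RD, 235, 245 and 138 in HFD and 259 and 366 in RD-RD at 49499 bp, with HFD-RD below both other groups and a log2 change of -1.28 ± 0.27 against HFD. Igf1, an insulin-like growth factor gene that resident macrophages express, had 21.9 and 56.5 normalized counts in HFD-RD, 70.5, 83.9 and 107 in HFD and 77.2 and 70.6 in RD-RD. HFD-RD lay below both other groups, which overlapped, with log2 changes of -1.26 ± 0.33 against HFD (adjusted p = 0.022) and -1.04 ± 0.36 against RD-RD. HFD against RD-RD did not pass (0.21 ± 0.33). Without HFD-RD replicate 1 the Igf1 change in HFD-RD against RD-RD was -0.38 and did not pass. Hectd2os had 14.6 and 50.0 normalized counts in HFD-RD, 67.7, 63.4 and 87.7 in HFD and 118 and 141 in RD-RD, with HFD-RD below both other groups.

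Single libraries weighed differently on these genes. Of the 16 regions named for HFD-RD against HFD, 7 still passed without HFD-RD replicate 1, those of Vipr2, Dapk1, Hsd11b1, P3h2, Gm2447, Tmprss5 and Irs1. Without it the log2 change of Papss1 was 0.53 against 1.22 with both HFD-RD libraries, that of Igf1 -0.59 against -1.26, that of A4galt -0.68 against -1.23 and that of Hectd2os -0.52 against -1.38. The other 5 regions that lost their call moved less, to 1.07 in Atp8a1 and in Gm17767, 1.12 in Ppfibp2, 1.22 in Fam149b and -1.23 in Lpar1. Without HFD replicate 1, 2 or 3, the number of the 16 that passed was 14, 13 and 14.

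**Figure D3:**
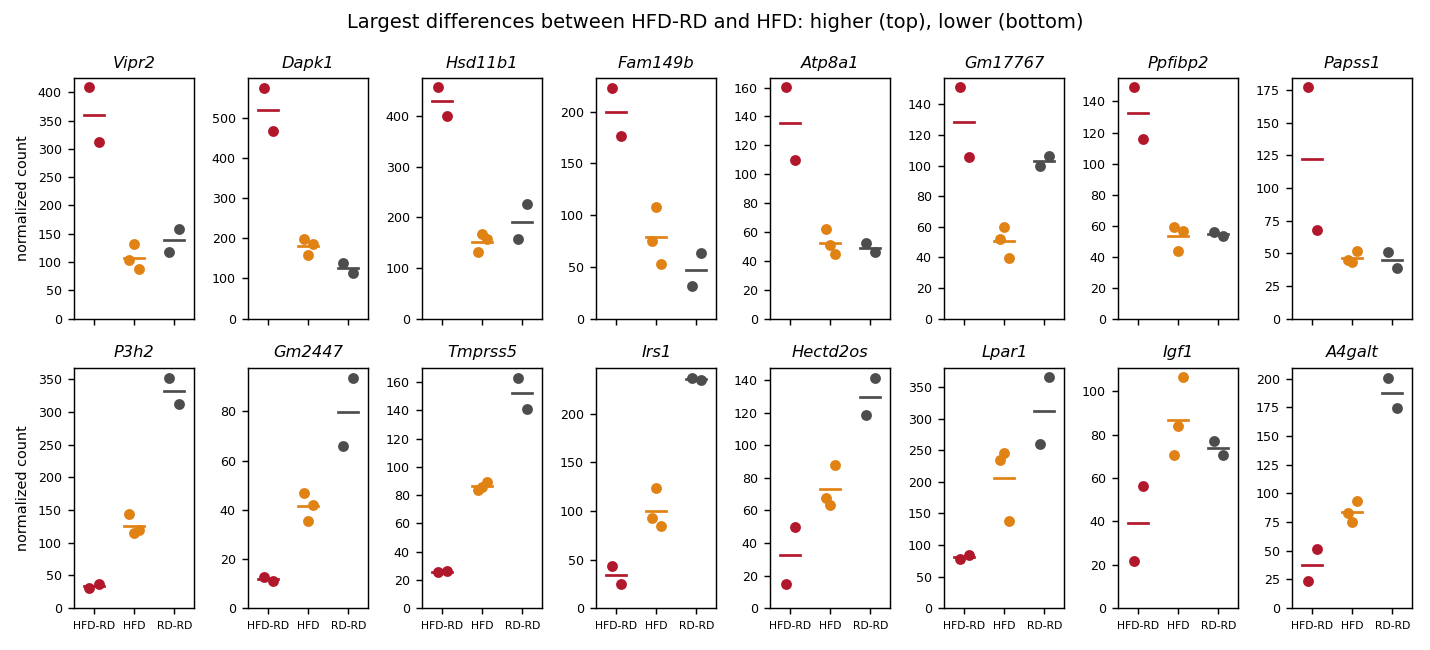
Normalized counts (vertical axis, from 0) of the regions with the 8 largest increases and the 8 largest decreases in HFD-RD against HFD, 1 region per gene, in the HFD-RD (n = 2), HFD (n = 3) and RD-RD (n = 2) libraries. Points are libraries and short lines group means; in Vipr2 and Hsd11b1 both HFD-RD libraries exceed all others, and in P3h2, Tmprss5 and Irs1 HFD lies between HFD-RD and RD-RD.

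In genes with several of these regions, the directions of the regions were compared. In HFD-RD against RD-RD 75.9% of the set was called higher and 22% lower, so many regions would match without a tie. Of the 955 genes, 203 had 2 or more regions of the set, 69 had 3 or more and 12 had 5 or more. In HFD-RD against RD-RD, all regions were called higher in 165 of the 203 genes and all lower in 25, while 8 held both directions. With median-of-ratios scaling these counts were 17, 26 and 1. For HFD against RD-RD they were 148, 19 and 8, and in HFD-RD against HFD 2, 5 and 2. There were 325 pairs of neighbouring regions in the same gene, with a median gap of 6804 bp. The smallest gap was 14 bp, so close pairs need not be separate sites. In HFD-RD against RD-RD, 85 of 85 pairs called at both places went the same way at gaps up to 2 kb, and the median difference between their log2 changes was 0.241. At gaps of 2 to 5 kb 57 of 58 pairs did, and at 5 to 10 kb 48 of 51. At 10 to 20 kb 55 of 56 did. The median differences at these gaps were 0.255, 0.169 and 0.311, without a steady order. At gaps over 20 kb, 65 of 70 pairs did, with a median difference of 0.367. Neighbouring regions share libraries, so these counts are descriptions.

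Every intragenic region of P3h2 in the set fell. Its 7 regions, at 10098 to 96179 bp, had log2 changes of -3.25 to -1.35 in HFD-RD against RD-RD and of -1.45 to -0.68 in HFD against RD-RD, and all 7 passed in both. Between HFD-RD and HFD 6 of the 7 fell, and the one farthest from the start did not pass (-0.45 ± 0.20, adjusted p = 0.112). With 1 HFD-RD or HFD library left out, 2 to 4 of the 7 passed in that comparison. The regions with the most reads, at 64694 and 70956 bp, had the smallest changes in HFD-RD against RD-RD. The region at 64694 bp had 305 and 368 normalized counts in HFD-RD, 568, 503 and 534 in HFD and 813 and 897 in RD-RD, without overlap between groups.

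Abr, a regulator gene of small GTPases, had 8 regions, all of which rose in HFD-RD against RD-RD, with log2 changes of 0.92 to 2.52. They did not share a single order of the groups. The region at 24666 bp had 96.7 and 98.1 normalized counts in HFD-RD, 163, 165 and 161 in HFD and 44.8 and 57.6 in RD-RD, and fell in HFD-RD against HFD (-0.74 ± 0.18, adjusted p = 0.0192). The region at 29937 bp had 146 and 118 normalized counts in HFD-RD, 89.4, 74.9 and 76.5 in HFD and 27.4 and 41.8 in RD-RD, and rose in HFD-RD against HFD (0.71 ± 0.22, adjusted p = 0.0405). The other 6 regions of Abr did not pass in that comparison. Neither of these calls held without HFD-RD replicate 1 or 2 or without HFD replicate 1, and that at 29937 bp was also lost without HFD replicate 2 or 3 and with equal totals. With median-of-ratios scaling 6 of the 8 were still called higher in HFD-RD against RD-RD.

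Camk2d, a calmodulin-dependent kinase gene, had 7 regions with log2 changes of 1.17 to 1.38 in HFD-RD against RD-RD. Syt6, a gene of vesicle fusion, and Tmem163, a zinc transporter gene, had 6 each, at 1.40 to 2.53 and 1.13 to 2.40. Fnip2, whose product binds folliculin, and Ankrd33b had 6 each as well, at 1.04 to 1.38 and 0.97 to 1.65. The gene 4933427D06Rik had the most, 10 regions, all of which were called higher, at 0.50 to 1.35. Its region at 94537 bp had 330.1 and 322 normalized counts in HFD-RD, 465, 476 and 564 in HFD and 225 and 236 in RD-RD, and with median-of-ratios scaling its log2 change in HFD-RD against RD-RD was -0.32. That scaling left 0 of the 10 regions of 4933427D06Rik and 0 of the 7 of Camk2d called higher in HFD-RD against RD-RD. It left 5 of 6 in Syt6, 4 of 6 in Tmem163 and 1 of 6 each in Fnip2 and Ankrd33b.

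The 8 genes with both directions in HFD-RD against RD-RD included Eepd1, Foxo3, Hs1bp3, Ppp3ca, Rapgef4, Rreb1 and Tafa3. In Foxo3, a forkhead factor gene of stress responses, the region at 25924 bp had 47.4 and 43.5 normalized counts in HFD-RD, 61.4, 65.0 and 70.5 in HFD and 101 and 99.4 in RD-RD, a log2 change of -1.12 ± 0.19. The regions on either side of it, at 16247 and 60761 bp, had log2 changes of 1.08 and 1.04, so that a region that fell lay between regions that rose. With median-of-ratios scaling these 2 regions were at 0.27 and 0.23 and not called. The Foxo3 regions at 16247 and 25924 bp also overlap the RefSeq gene Gm38485.

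In Rapgef4, a cAMP-binding exchange factor gene of Rap, the region at 50484 bp had 69.3 and 80.5 normalized counts in HFD-RD, 97.1, 106 and 134 in HFD and 174 and 153 in RD-RD, a log2 change of -1.12 ± 0.22. Its neighbour at 45274 bp had 63.8 and 72.2 in HFD-RD, 61.4, 66.6 and 49.9 in HFD and 26.2 and 27.4 in RD-RD, a log2 change of 1.31 ± 0.21. At 50484 bp HFD lay between HFD-RD and RD-RD without overlap, and at 45274 bp HFD-RD and HFD overlapped above RD-RD. The region at 45274 bp was at 0.51 and not called with median-of-ratios scaling. In Hs1bp3 the region at 26422 bp had a log2 change of -1.84 ± 0.24 and that at 18176 bp one of 1.10 ± 0.28, which was 0.29 and not called with median-of-ratios scaling. With a minimum mean of 50 normalized counts, 5 genes held both directions, and with median-of-ratios scaling 1 did.

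**Figure D4:**
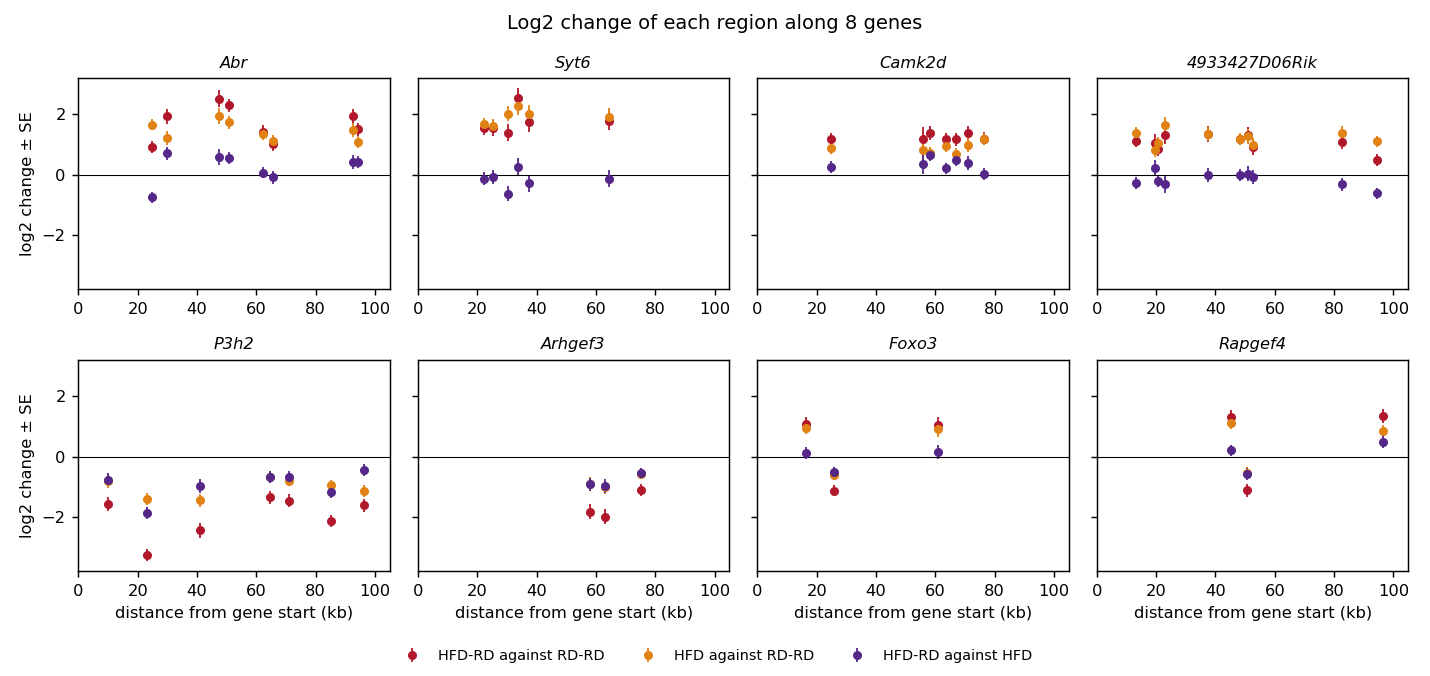
Log2 change with its SE (vertical axis) of each intragenic region of 8 genes against its distance from the gene start in kb (horizontal axis), in the 3 comparisons. All 7 regions of P3h2 lie below 0 in each comparison, all 8 of Abr lie above 0 against RD-RD, and Foxo3 and Rapgef4 each hold a region below 0 between regions above 0 in HFD-RD against RD-RD.

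For 44 of the genes the region over the gene start was also deposited, and these genes held 69 intragenic regions. In HFD-RD against RD-RD, 61 of the 69 (88.4%) were lower and 8 higher, whereas of the 1211 regions in genes without a deposited start region 220 (18.2%) were lower and 964 (79.6%) higher. The direction of the call was the same at the start and inside the gene in 67 of 69 pairs, lower at both places in 60 and higher at both in 7. Between HFD and RD-RD, 55 pairs were called at both places and 53 had the same direction. Between HFD-RD and HFD, 20 pairs were called at both places, and all 20 were lower at both. Over the other settings tried, 61 to 68 of the 69 pairs in HFD-RD against RD-RD had the same direction. Both places were deposited because they differ between these libraries, and 90.5% of the 296 deposited gene starts were called lower, so no test of the match was made.

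In Irs1 the start region had a log2 change of -1.57, and the region at 56100 bp one of -2.79, in HFD-RD against RD-RD. In P3h2 the start, at -2.10, lay within the range of the 7 inner regions, and in Egfr, at -1.69, within that of the 3 inner regions. Stk39, a kinase gene of ion transport control, had inner regions at -1.17, -1.01 and -1.27, with its start at -1.10. The 7 pairs that rose were the 4 regions of Angpt2, with its start at 1.33, 2 of Shisa9, with its start at 0.91, and 1 of 2310043O21Rik, with its start at 1.15. Fmn1, a formin gene of actin assembly, was the pair that went apart. Its inner region had 153 and 99.98 normalized counts in HFD-RD, 101, 91.3 and 87.7 in HFD and 59.8 and 54.7 in RD-RD, a log2 change of 1.10 ± 0.23, against -1.17 at its start. The inner Fmn1 region was at 0.29 and not called with median-of-ratios scaling. In Ttc28 the inner region had a log2 change of -1.28 and the start did not pass.

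**Figure D5:**
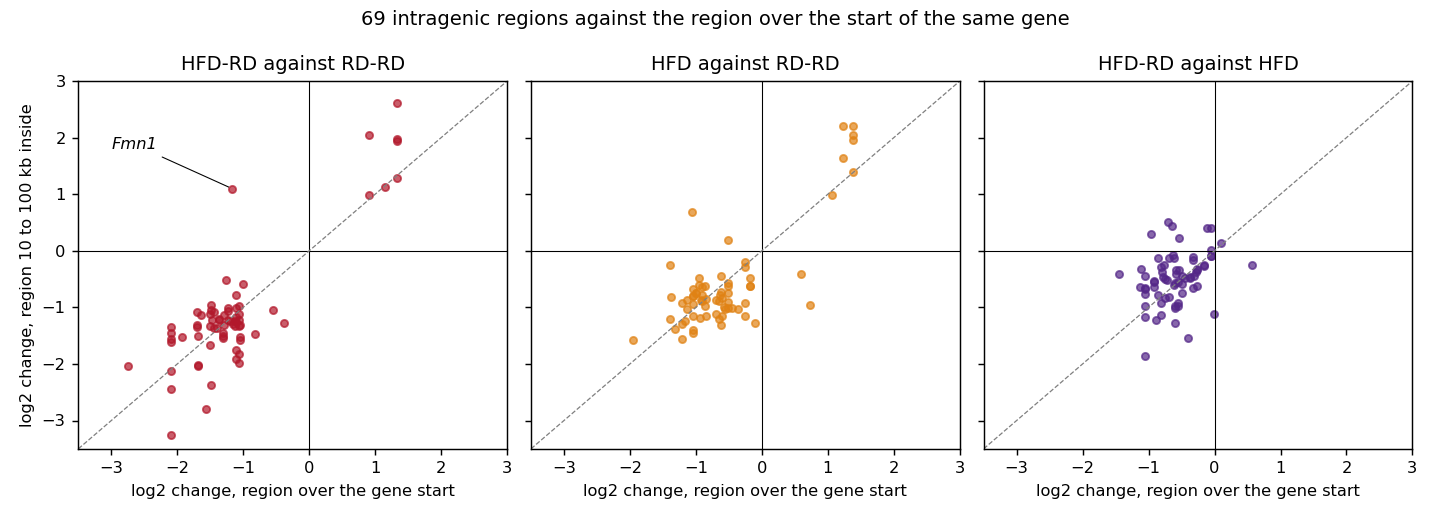
Log2 change of 69 intragenic regions (vertical axis) against that of the region over the start of the same gene (horizontal axis) in the 3 comparisons. Each point is an intragenic region; in HFD-RD against RD-RD, 60 lie where both were called lower, 7 where both were called higher, and Fmn1 lies apart.

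Other deposited regions of the same gene also mostly had the same direction. In HFD-RD against RD-RD, 94 of 96 pairs of an intragenic region with a region inside the gene within 10 kb of its start, called at both places, had the same direction. The count was 64 of 65 with upstream regions within 10 kb and 202 of 211 with regions inside the gene at over 100 kb. It was 176 of 196 with upstream regions at 10 to 100 kb and 96 of 125 with regions downstream of the gene. Most calls were higher, at 75.9% of the intragenic and 64.8% of all deposited regions, so many pairs would match without a tie. Called or not, the pairs came from 58, 47, 54, 98 and 49 genes in this order, and genes with many regions count repeatedly. The difference between these places was not tested.

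Markers of other cell types that such a sort could hold were few in the set. T cell, NK cell, neutrophil, dendritic cell, monocyte, mast cell and eosinophil, and adipocyte markers had 0 intragenic regions. The place rule limits these counts. Over all deposited regions, 5 of 9 endothelial, 4 of 8 B cell and 4 of 8 dendritic cell markers had a region. So did 2 of 12 T cell, 2 of 6 neutrophil, 2 of 8 fibroblast and preadipocyte, 1 of 7 adipocyte and 3 of 14 macrophage markers. NK cell, monocyte, and mast cell and eosinophil markers had 0 there too. Of 8 B cell markers 1 had a region, that of Bank1, with 74.8 and 67.6 normalized counts in HFD-RD, 89.4, 103 and 98.0 in HFD and 147 and 154 in RD-RD, which fell in HFD-RD against RD-RD. Of 9 endothelial markers 1 had a region, that of Pecam1, with 128 and 118 in HFD-RD, 91.2, 97.1 and 70.5 in HFD and 44.8 and 57.6 in RD-RD, and of 8 markers of fibroblasts and preadipocytes 1 had a region, that of Pdgfrb, with 69.3 and 52.8 in HFD-RD, 51.5, 44.4 and 30.9 in HFD and 31.1 and 12.96 in RD-RD. Both were called higher in HFD-RD against RD-RD, and with median-of-ratios scaling neither was called. Of 14 macrophage markers 1, Runx1, had regions, at 86368 and 99464 bp, and with median-of-ratios scaling 1 of them was below 0. The part of other cell types in the results was not tested, and in sorted bulk cells a shift in cell types and a change within cells cannot be told apart.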

How the data were processed

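Nuclei of FACS-sorted adipose tissue macrophages gave 7 ATAC-seq libraries, grouped by title and diet label. The authors deposited 7 tables of regions that differ between groups, which were stacked to 5898 regions. Their values, per the file headers and the values themselves, are a normalized count signal, the read count of a region divided by 1 size factor per library, beside the authors' log2 fold change, test score (Wald statistic) and p-value. Per the submitters' processing notes, Picard, deepTools, MACS2 2.0.10, DESeq2 and GRCm38 were used; the sources used here give neither aligner nor filters. Regions that did not differ are not among the deposited regions used here, so shares of called regions describe a selected set.

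All 3 groups were fitted together with limma 3.58.1 (R 4.3.3) on log2 of the normalized count plus 1, a scale that understates changes of low counts. The spread between libraries rests on 4 residual degrees of freedom, with 7.2 prior degrees of freedom. P-values were adjusted by Benjamini–Hochberg over the 5898 regions, and 0.05 was the threshold. All regions passed the minimum mean of 10 normalized counts, so that 0 were removed. A test on read counts was not run, since reads could only be estimated from the steps of the values. The fit was checked on simulated data in which few regions changed and size factors were known, so the choice of scaling was not tested. The tables do not name their comparison, which was read from the authors' deposited log2 fold changes against the group means, so those fold changes are no check of the fit.

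Members and lists were chosen with earlier results of these data known. Named by rule were the regions, 1 per gene, of the 8 largest increases and 8 largest decreases passing in each comparison without overlap of the groups, the regions of the 8 genes with the most, and the 2 genes per list with the largest change. Regions with transcript starts, genes with both directions, genes with a deposited start and further list genes were named after their values were seen. Some named results are not reported here. Transcript starts and windows came from RefSeq GRCm38.p6. Exact gene symbols joined the lists to the regions.

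Replicate numbers of the titles were not used as pairs in the main fit, and the check in the closing section cannot decide on pairing. Alternatives covered the pseudocount, the filter, the scaling, robust moderation, a fold threshold, 1 region per gene, the replicate block and each library left out.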

Additional observations from a re-analysis of the deposited data

How the results depend on the processing

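Among the settings tried and by ratio, median-of-ratios scaling moved the counts of higher calls most in comparisons with RD-RD. The fold threshold moved the count of lower calls most in HFD against RD-RD. Leaving out HFD-RD replicate 1 moved the counts most in HFD-RD against HFD. In HFD-RD against RD-RD, lower calls ran from 236 with 1 region per gene to 296 with median-of-ratios scaling. With median-of-ratios scaling over the deposited regions, 243 regions were called higher in HFD-RD against RD-RD and 286 in HFD against RD-RD, and 198 were called lower in HFD-RD against HFD. That scaling turned the log2 change of 4933427D06Rik at 94537 bp to -0.32 in HFD-RD against RD-RD. In HFD against RD-RD it turned those of Dapk1 at 57834 bp to -0.18, Csf2rb at 25477 bp to -0.14, Fnip2 at 85114 bp to -0.0094 and at 28674 bp to -0.19, and Camk2d at 66813 bp to -0.0062. Equal totals gave 73 higher and 271 lower in HFD-RD against HFD. An absolute log2 change of at least 1 left 562 higher and 90 lower in HFD against RD-RD, and 37 and 32 in HFD-RD against HFD. Leaving out 1 library at a time gave between HFD-RD and RD-RD 902 to 973 higher and 277 to 282 lower, between HFD and RD-RD 754 to 897 and 203 to 250, and between HFD-RD and HFD 4 to 167 and 20 to 135. With the replicate number as a block, 41 were higher and 36 lower in HFD-RD against HFD, while 968 higher and 279 lower were called between HFD-RD and RD-RD, with 830 and 233 between HFD and RD-RD. Deviations of same-numbered libraries correlated at -0.072 to 0.063. In groups of 2 libraries the deviations mirror each other, so these values cannot decide whether the numbers pair the libraries. The cause of each shift was not tested. The median SE in HFD-RD against RD-RD was 0.254 in the 320 regions with the lowest mean values and 0.216 in the 320 with the highest. A planned count test was not run.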
